A study of Mus musculus with 16 samples.

Results

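The Frizzled receptors are the cell-surface receptors for WNT proteins, and their transcripts were followed here through embryonic mouse gonads with and without the ligand gene Wnt4. The 10 mouse Frizzled genes, Fzd1 to Fzd10, were taken by gene symbol from the array annotation. All 10 were measured, with 26 of the 45037 probe sets that are not controls, and 21 of the 26 passed the filter on low signal. The 10 genes stood among 12336 genes tested, 1 probe set per gene.

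A Frizzled receptor binds WNT ligands with a cysteine-rich domain outside the cell and passes the signal to Dishevelled proteins inside it. Together with the co-receptors LRP5 and LRP6 this stabilises beta-catenin, and other Frizzled pathways steer cell polarity or calcium release. The membrane E3 ligases ZNRF3 and RNF43 remove Frizzled proteins from the cell surface, and R-spondins, bound by LGR receptors, counter this removal. In the gonad, WNT4 and RSPO1 signalling is known for its role in ovarian development, and the Frizzled partners of a WNT in a tissue depend on which receptors its cells express. By sequence the family falls into the groups Fzd1, Fzd2 and Fzd7, then Fzd5 and Fzd8, then Fzd3 and Fzd6, then Fzd9 and Fzd10, with Fzd4 apart.

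The samples were Wnt4 knock-out (KO) testes and ovaries and wild-type (WT) testes and ovaries, each at embryonic day 14.5 (E14.5) and 12.5 (E12.5), which makes 8 groups of 2 arrays and 16 arrays in all. No other allele, agent or strain is part of a group, and the labels used here do not say which part of Wnt4 the knock-out allele lacks, nor whether an RNA came from 1 embryo or from a pool. Arrays of a group are called biological replicates, so p-values measure the spread between these arrays. The design asks how Wnt4 loss, gonadal sex and developmental stage each bear on the receptors that its product could meet.

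Mean intensity was 272 to 288 per array, and the array medians lay between 9.28 and 10.4, against which a dim probe set can be judged. The Wnt4 probe set gave 277 and 371 in KO testes at E14.5, against 753 and 512 in WT testes, and 351 and 302 in KO ovaries, against 1138 and 1150 in WT ovaries. At E12.5 it gave 413 and 231 in KO testes, against 502 and 473 in WT testes, and 839 and 520 in KO ovaries, against 844 and 1822 in WT ovaries. Wnt4 signal was thus lower in the KO arrays of every pair of groups but not absent, and whether the probe set lies in the deleted part was not tested. The 9 Sertoli cell markers summed to 5245 to 8197 in testes and to 315 to 2616 in ovaries. Xist, the RNA that silences an X chromosome, was at most 1087 in testes and at least 3654 in ovaries, and 6 arrays carried an estimated 8.39 to 22.8% of RNA from the other sex. The 3'/5' ratio of the actin and Gapdh control probe sets, which rises as RNA is degraded, was 1.06 to 1.36 at E14.5 and 1.09 to 2.27 at E12.5. It was highest in KO ovary E12.5 replicate 1 (2.27), KO testis E12.5 replicate 1 (1.76) and WT ovary E12.5 replicate 2 (1.76). Replicates differed with a standard deviation of 0.33 to 0.59 (log2) over probe sets, except the WT testes at E12.5, at 0.14. Whether the arrays of that close pair are independent was not tested. In the comparisons that use it, 57.2% to 69.3% of all genes had groups that did not overlap. In the other comparisons of 2 groups the share was 25.7% to 61.9%.

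The promoters of Fzd5, Fzd4, Fzd7 and Fzd9 are shown because these genes were lower at E14.5 than at E12.5 on average over the groups. The fall of Fzd9 is a description only, because it entered the test through E12.5 testes. The promoter of Fzd1 is shown because the probe set read for it was steady across the 8 groups. Each promoter runs 5′ to 3′ on the gene's own strand, 250 bases before to 50 bases after the annotated start (RefSeq, build GRCm38.p6). Capitals mark GC boxes, the letters GGGCGG or the reverse complement CCGCCC, and neighbouring boxes can overlap. Fzd5 is on the minus strand at chr1:64737701-64738000, Fzd4 on the plus strand at chr7:89404116-89404415, Fzd7 on the plus strand at chr1:59481897-59482196, Fzd9 on the minus strand at chr5:135250998-135251297, and Fzd1 on the minus strand at chr5:4758167-4758466.
Fzd5: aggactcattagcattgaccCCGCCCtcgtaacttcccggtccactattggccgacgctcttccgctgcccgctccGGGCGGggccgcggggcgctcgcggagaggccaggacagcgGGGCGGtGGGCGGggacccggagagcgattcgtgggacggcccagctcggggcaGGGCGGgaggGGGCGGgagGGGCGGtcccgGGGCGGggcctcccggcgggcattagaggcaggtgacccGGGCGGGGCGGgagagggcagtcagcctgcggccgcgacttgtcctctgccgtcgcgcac
Fzd4: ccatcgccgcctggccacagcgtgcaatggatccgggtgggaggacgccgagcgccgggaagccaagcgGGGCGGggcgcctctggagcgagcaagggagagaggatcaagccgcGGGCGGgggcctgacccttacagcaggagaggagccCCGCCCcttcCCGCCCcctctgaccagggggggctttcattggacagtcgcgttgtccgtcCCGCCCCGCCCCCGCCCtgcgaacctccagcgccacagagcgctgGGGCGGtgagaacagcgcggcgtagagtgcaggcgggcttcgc
Fzd7: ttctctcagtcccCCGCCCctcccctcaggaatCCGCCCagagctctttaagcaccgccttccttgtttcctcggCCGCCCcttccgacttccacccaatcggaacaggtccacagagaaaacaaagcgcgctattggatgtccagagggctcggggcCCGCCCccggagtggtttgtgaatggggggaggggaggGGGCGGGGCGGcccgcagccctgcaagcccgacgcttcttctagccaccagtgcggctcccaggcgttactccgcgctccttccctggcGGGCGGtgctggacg
Fzd9: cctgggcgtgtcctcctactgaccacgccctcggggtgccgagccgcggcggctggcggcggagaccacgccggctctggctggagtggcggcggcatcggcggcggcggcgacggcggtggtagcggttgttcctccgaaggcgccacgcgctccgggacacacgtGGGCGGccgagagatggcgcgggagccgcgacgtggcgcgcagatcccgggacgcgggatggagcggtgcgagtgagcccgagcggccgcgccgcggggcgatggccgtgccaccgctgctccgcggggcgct
Fzd1: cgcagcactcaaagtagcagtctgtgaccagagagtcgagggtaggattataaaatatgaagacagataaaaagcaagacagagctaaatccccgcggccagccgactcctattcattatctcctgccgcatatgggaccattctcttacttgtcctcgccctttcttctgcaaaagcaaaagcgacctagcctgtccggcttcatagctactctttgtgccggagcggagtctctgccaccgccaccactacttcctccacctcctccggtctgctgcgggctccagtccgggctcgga

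Fzd5 has 10 GC boxes in this window, Fzd4 has 8, Fzd7 has 7, Fzd9 has 1 and Fzd1 has 0. Fzd9, whose fall is a description only because of the filter, thus did not share the high counts of Fzd5, Fzd4 and Fzd7. Among 32851 mouse promoters of the same length 35.7% hold at least 1 GC box and 0.627% hold 7 or more. The GC content was 75.7% for Fzd5, 72.7% for Fzd4, 66.7% for Fzd7, 78.0% for Fzd9 and 54.0% for Fzd1, beside a median of 52.7% over all promoters. Fzd10, the remaining member among the promoters used, holds 1 GC box at 77.7% GC. Fzd2, Fzd3, Fzd6 and Fzd8 were not among the promoters used. Fzd8, which was also lower at E14.5 on average, is therefore missing from this comparison. The TCF/LEF letters CTTTGA (both strands, in 5257 of the 32851 promoters) occur in Fzd1 alone of these 6 members, and CTTTGT (18.7%) in Fzd1 and Fzd7. The NR5A1 letters AAGGTCA (4.72% of promoters) occur in none of the 6, and the GATA letters AGATAA (11.2%) occur 2 times in the Fzd1 window. These matches describe the letters of the windows only.

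Of the 10 receptors, 8 were above the array median in all 16 arrays. Fzd9 and Fzd10 were the dim members, with signals of 4.26 to 12.2 and 6.98 to 22.5 beside array medians of 9.28 to 10.4. Fzd9 was above the median in 3 arrays, all of them E12.5 testes, so it entered the test through the group in which it is highest. A second, dimmer Fzd1 probe set was less even, with group means from 15.0 in KO ovaries at E12.5 to 47.4 in KO ovaries at E14.5. At the probe set read for Fzd1, a receptor of the beta-catenin pathway, the 8 group means lay between 554 and 673. No neighbours in their order were separated beyond the spread of their arrays. In contrast Fzd5 and Fzd8 spanned 1.67 and 1.46 on the log2 scale over the groups, Fzd4 spanned 1.31 and Fzd7 spanned 1.01, where the median span over all genes was 0.76 and 31.0% of genes spanned 1 or more.

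**Figure D1:**
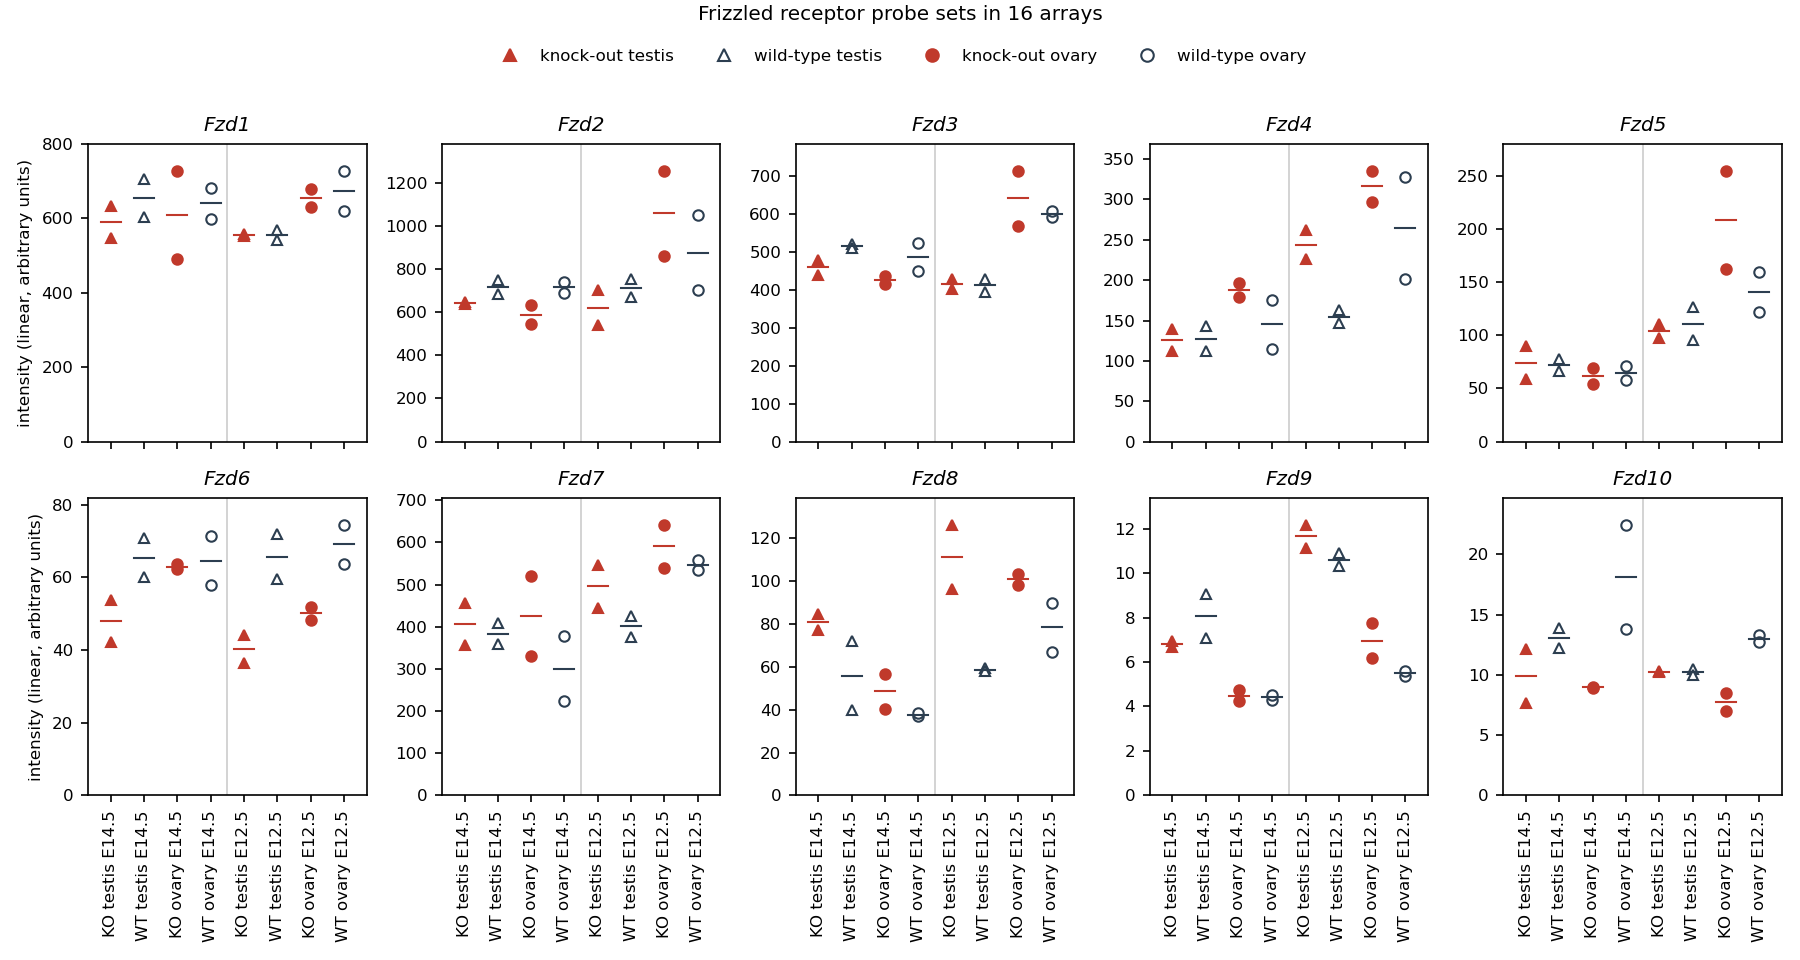
Intensity (linear scale, arbitrary units) of the probe set read for each Frizzled gene in the 16 arrays, with groups on the horizontal axis and E14.5 to the left of the grey line. Points are arrays and short lines are group means of 2. At these probe sets Fzd1 is level across groups, all 8 Fzd5 values at E14.5 lie below all 8 at E12.5, and Fzd9 and Fzd10 stay under 23.

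Loss of Wnt4 moved no Frizzled gene past the threshold in either sex at either stage. Receptor by receptor, the KO minus WT differences lay between -0.54 and 0.53 (log2) in ovaries at E12.5, between -0.74 and 0.51 in ovaries at E14.5, between -0.65 and 0.87 in testes at E12.5 and between -0.42 and 0.56 in testes at E14.5. With limma (moderated variances, Benjamini-Hochberg adjustment over 12336 genes, threshold 0.05) 0 of 10 members passed in each of the 4 comparisons, where 0.292% of all genes passed in ovaries at E12.5, 0.543% in ovaries at E14.5, 0.0405% in testes at E12.5 and 0.00811% in testes at E14.5. At an unadjusted p under 0.05 the members numbered 1 and 1 in ovaries at E12.5 and E14.5, then 3 and 0 in testes, against 989, 708, 1365 and 183 genes in all. The 95% intervals of the members reached at most -1.18 downward (Fzd10, ovaries at E14.5) and 1.501 upward (Fzd8, testes at E12.5), so any difference beyond these bounds lay outside the intervals of all members in the 4 comparisons. The effect of the knock-out on the members did not differ past the threshold between testes and ovaries or between E14.5 and E12.5, with 0 of 10 members called in each of the 4 limma interaction tests and 0 at an unadjusted p under 0.05. Of all genes 0.113% and 0% were called for testes against ovaries at E12.5 and E14.5, and 0% and 0.00811% for E14.5 against E12.5 in ovaries and testes.

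Fzd8, a receptor close to Fzd5 in sequence, was the member with the widest KO difference. It gave 96.5 and 126 in KO testes at E12.5, against 59.4 and 58.1 in WT testes. At E14.5 the values were 77.1 and 84.6 in KO testes, against 72.2 and 39.7 in WT testes. In each of these pairs both KO arrays were above both WT arrays. KO ovaries gave 98.4 and 104 at E12.5, against 67.1 and 89.7 in WT ovaries, and 40.4 and 56.7 at E14.5, against 37.0 and 38.3 in WT ovaries. The KO arrays of Fzd8 were therefore above the WT arrays in all 4 comparisons, in which 27.5% (ovaries at E12.5), 31.2% (ovaries at E14.5), 57.2% (testes at E12.5) and 25.7% (testes at E14.5) of all genes had groups that did not overlap. Such shares, here and below, count either direction in a single comparison. The share of all genes with KO above WT in all 4 comparisons was not counted. The largest of the 4 differences was 0.87 ± 0.29 (SE) in testes at E12.5, with an adjusted p of 0.291. Averaged over the 4 comparisons, a contrast added after the values were seen, Fzd8 differed by 0.53 (95% interval 0.21 to 0.84) with an adjusted p of 0.129, in a contrast that 1.43% of all genes passed. The second Fzd8 probe set was dim, at 8.38 to 19.98 in every array but KO ovary E12.5 replicate 2, at 56.3. Its KO arrays were above the WT arrays in ovaries at E12.5 (19.5 and 56.3 against 12.5 and 11.2), below them in ovaries at E14.5 (8.38 and 12.5 against 13.9 and 13.5) and overlapped with them in testes at both stages.

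Fzd10 and Fzd6 stood on the opposite side. Fzd10 gave 8.97 and 8.95 in KO ovaries at E14.5, against 13.8 and 22.5 in WT ovaries, and 6.98 and 8.50 in KO ovaries at E12.5, against 13.3 and 12.7 in WT ovaries. In testes it gave 7.68 and 12.1 (KO) against 12.2 and 13.9 (WT) at E14.5, and 10.3 and 10.3 (KO) against 10.46 and 10.01 (WT) at E12.5. Groups did not overlap in 27.5% (ovaries, E12.5), 31.2% (ovaries, E14.5), 57.2% (testes, E12.5) and 25.7% (testes, E14.5) of all genes. For Fzd10 KO arrays were below WT arrays in 3 of the 4 comparisons and overlapped in E12.5 testes, at signals of at most 22.5 throughout. The averaged difference was -0.40 (95% interval -0.61 to -0.18) with an adjusted p of 0.0816, and it passed the threshold without WT ovary E14.5 replicate 1 or without KO testis E14.5 replicate 2.

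Fzd6, which orients hairs and inner ear cells as a planar polarity receptor in mice, gave 44.2 and 36.5 in KO testes at E12.5, against 59.5 and 71.8 in WT testes. KO testes at E14.5 gave 42.2 and 53.7, against 70.8 and 59.95 in WT testes. KO ovaries gave 48.4 and 51.8 at E12.5, against 63.7 and 74.5 in WT ovaries, and 63.6 and 62.2 at E14.5, against 57.8 and 71.3 in WT ovaries. The groups were apart, with KO lower, in all but the E14.5 ovaries, and the averaged difference was -0.38 (95% interval -0.64 to -0.13, adjusted p = 0.190). Depending on the comparison, 25.7% to 57.2% of all genes had groups that did not overlap. The second, dimmer Fzd6 probe set differed by -0.41 and -0.38 at E12.5 and by 0.59 and -0.36 at E14.5 in ovaries and testes. Fzd4, the norrin receptor of retinal vessels, had an averaged difference of 0.32 (95% interval 0.03 to 0.62, adjusted p = 0.421). Its KO arrays were above the WT arrays in testes at E12.5 (262 and 226 against 147 and 162) and in ovaries at E14.5 (179 and 197 against 175 and 115), and overlapped with them in the other two comparisons. The second Fzd4 probe set did not follow this. It gave 83.1 and 135 in KO testes at E12.5, against 134 and 176 in WT testes, and 101 and 121 in KO ovaries at E14.5, against 227 and 59.5 in WT ovaries, with differences of -0.52 and -0.08 and groups that overlapped. The remaining members, Fzd1, Fzd2, Fzd3, Fzd5, Fzd7 and Fzd9, had averaged differences from -0.09 to 0.25, with adjusted p from 0.589 to 0.903.

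**Figure D2:**
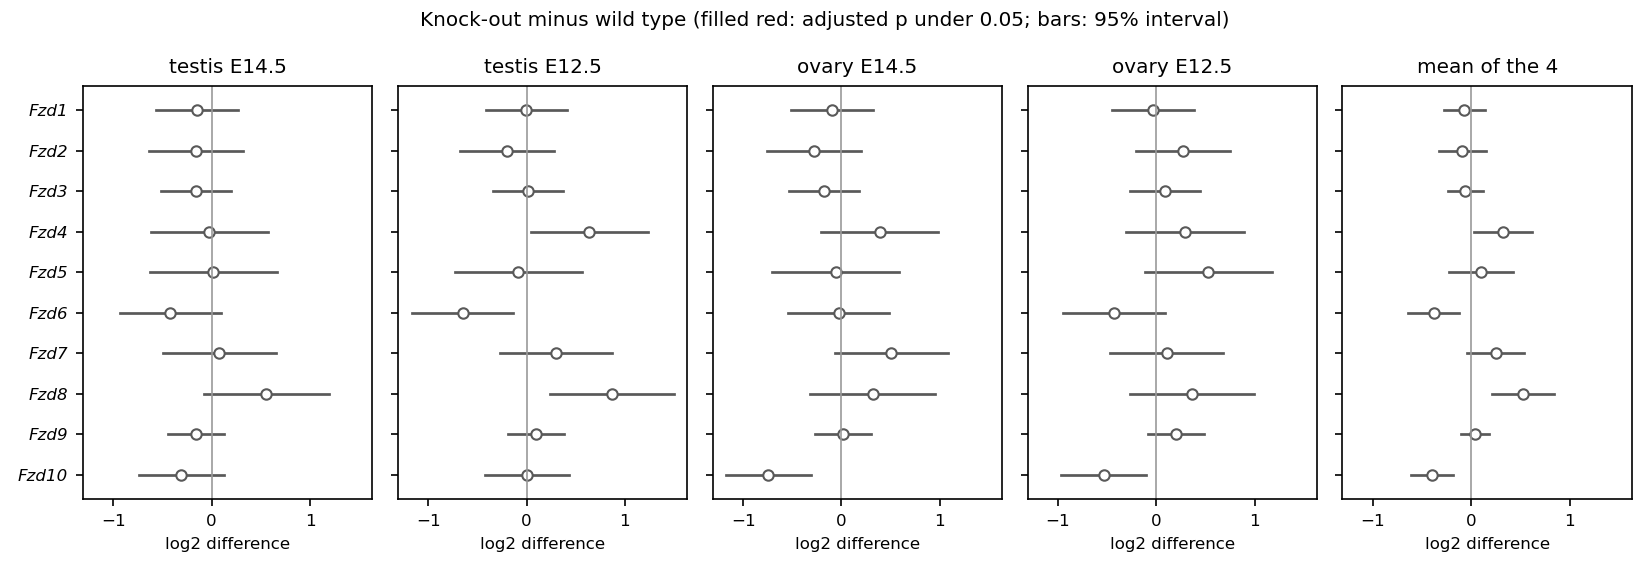
Difference of KO minus WT (log2, horizontal axis) for each Frizzled gene in testes and ovaries at both stages and as the mean of the 4 comparisons. Points are limma estimates, bars are 95% intervals, and open points did not pass the threshold. No member passed, and the interval of the mean lay above 0 for Fzd8 and Fzd4 and below 0 for Fzd6 and Fzd10. These 4 of 10 members had an unadjusted limma p under 0.05 in the mean, as had 1264 of all 12336 genes. The mean was a contrast added after the values were seen.

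Between E12.5 and E14.5 several Frizzled transcripts fell, Fzd5 by the most. In KO ovaries 4 of 10 members were lower at E14.5 (Fzd2, Fzd3, Fzd5 and Fzd8) and 0 were higher, in a comparison that 13.8% of all genes passed, 8.46% of all genes downward. In KO testes 1 member passed, the dim Fzd9 (log2 -0.53, limma adjusted p = 0.0398), where 4.04% of all genes did. The E12.5 testes are the arrays through which the filter admitted Fzd9, so this call is a description only. In WT ovaries and WT testes 0 of 10 passed, where 4.36% and 10.6% of all genes did. At an unadjusted p under 0.05 there were 4 members in WT ovaries and 0 in WT testes, against 2270 and 3269 of the 12336 genes. The stage difference of the members was not shown to differ between KO and WT, since the interaction test called 0 of 10 in either sex.

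Fzd5, needed in mice for blood vessel growth in the yolk sac, gave 54.4 and 68.9 in KO ovaries at E14.5, against 255 and 162 at E12.5. WT ovaries gave 70.7 and 57.7 at E14.5, against 159.9 and 122 at E12.5. In testes the E14.5 values were 59.0 and 89.7 (KO) and 66.5 and 78.0 (WT), and the E12.5 values were 110.1 and 97.0 (KO) and 95.3 and 127 (WT). All 8 arrays at E14.5, from 54.4 through a median of 67.7 to 89.7, lay below all 8 at E12.5, from 95.3 through a median of 125 to 255. Such a full separation downward was seen in 284 genes, 2.30% of those tested, and in no other member. The means in KO ovaries were 61.7 ± 10.2 at E14.5 and 209 ± 65.3 at E12.5 (SD, n = 2), and the fitted difference of log2(intensity + 4) was -1.67 ± 0.30 (SE, limma adjusted p = 0.00327). In WT ovaries the difference was -1.08 (adjusted p = 0.0620), in KO testes -0.48 (0.469) and in WT testes -0.58 (0.234). The interval of the difference between the KO and WT ovary changes ran from -1.50 to 0.33.

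Fzd8 gave 40.4 and 56.7 in KO ovaries at E14.5, against 98.4 and 104 at E12.5, a fall by 1.01 on the log2 scale (SE 0.29, limma adjusted p = 0.0377). WT ovaries gave 37.0 and 38.3 at E14.5, against 67.1 and 89.7 at E12.5, with a difference of -0.97 and an adjusted p of 0.0899. In both genotypes the ovary arrays at E14.5 were below those at E12.5, where 61.9% (KO) and 39.9% (WT) of all genes did not overlap. In testes the differences were -0.43 (KO) and -0.12 (WT), with adjusted p of 0.518 and 0.842. The dimmer Fzd8 probe set also passed in KO ovaries in the fit of all probe sets (7.55% called), at -1.40 (adjusted p = 0.0365), while the probe set read for Fzd8 did not in that fit (adjusted p = 0.0632). The dimmer one gave 8.38 and 12.5 at E14.5 against 19.5 and 56.3 at E12.5.

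Fzd2, a partner of WNT5A in several tissues, gave 544 and 632 in KO ovaries at E14.5, against 1256 and 860.4 at E12.5 (log2 -0.82 ± 0.22 SE, limma adjusted p = 0.0286). Fzd3, which guides growing axons, gave 415 and 437 against 713 and 568 (log2 -0.58 ± 0.16 SE, adjusted p = 0.0363). For both genes the E14.5 arrays of the KO ovaries lay below the E12.5 arrays, where 61.9% of all genes did not overlap. The WT ovaries gave 742 and 688 at E14.5 against 703 and 1048 at E12.5 for Fzd2, and 448 and 522 against 591 and 608 for Fzd3. The other probe sets gave smaller differences in KO ovaries, -0.64 and -0.13 for Fzd2 and -0.37, -0.01 and 0.47 for Fzd3, with adjusted p from 0.127 to 0.988 in the fit of all probe sets.

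The KO ovary count of 4 depended on single arrays. Without KO ovary E12.5 replicate 1, the array with the highest 3'/5' ratio, 0 of 10 members passed, and without KO ovary E14.5 replicate 1 or replicate 2 only Fzd5 did. The differences without KO ovary E12.5 replicate 1 were -1.35 for Fzd5 (limma adjusted p = 0.0526), -1.05 for Fzd8 (0.173), -0.55 for Fzd2 (0.295) and -0.41 for Fzd3 (0.310). With the 3'/5' ratio as a covariate 0 passed, and the differences were -1.44 for Fzd5 (limma adjusted p = 0.0513), -1.07 for Fzd8 (0.175), -0.38 for Fzd2 (0.417) and -0.45 for Fzd3 (0.302). Fzd8 was thus as far apart in these settings as with all arrays, while Fzd2 and Fzd3 were closer. In the same comparison 5 of 6 neuron and chromaffin markers were lower at E14.5 (median -3.07) and summed to 114 to 141 at E14.5, against 562 to 1099 at E12.5. The 4 adrenal cortex markers were lower too and summed to 48.3 to 76.5, against 259 to 643, while 6 of 6 meiosis markers were higher. Of the erythroid markers 3 of 4 were lower, with sums of 14003 to 16457 at E14.5, against 27249 to 31613 at E12.5. Of the endothelium markers 2 of 7 were lower (median -0.78), with sums of 2007 to 2708 at E14.5, against 2305 to 2402 at E12.5. Sertoli cell and mesonephric duct markers were lower in 2 of 9 and 2 of 6, pre-granulosa markers were higher in 3 of 10, and germ cell markers were higher in 3 of 7 and lower in 1. The part of these cell types in the Frizzled differences was not tested, and in these whole gonads fewer cells of a type and less RNA per cell cannot be told apart.

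Averaged over both sexes and both genotypes, a contrast added after the values were seen, 5 of 10 members were lower at E14.5 and 0 were higher. Fzd9 is among the 5, and its call is again a description because of the filter. This contrast was passed by 26.5% of all genes, 13.5% of all genes downward. The averaged log2 differences were -0.96 (95% interval -1.28 to -0.63, limma adjusted p = 0.000476) for Fzd5, -0.70 (-0.997 to -0.40, adjusted p = 0.00243) for Fzd4 and -0.63 (-0.95 to -0.32, adjusted p = 0.00663) for Fzd8. Fzd7 differed by -0.44 (-0.72 to -0.15, adjusted p = 0.0272) and the dim Fzd9 by -0.34 (-0.48 to -0.20, adjusted p = 0.00231). The median over the 10 members was -0.30, beside -0.03 over all genes. Without KO ovary E12.5 replicate 1 the calls for Fzd4, Fzd5 and Fzd8 were kept.

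At the probe set read for Fzd4 the 8 arrays at E14.5 ran from 112 through a median of 141 to 197. Those at E12.5 ran from 147 through a median of 244 to 336. KO testes gave 139 and 112 at E14.5 against 262 and 226 at E12.5, a difference of -0.94 (adjusted p = 0.0817), and WT testes gave 112 and 143 against 147 and 162. The E14.5 arrays were below the E12.5 arrays in each sex and genotype taken alone, where 61.9% (KO ovaries), 39.9% (WT ovaries), 49.8% (KO testes) and 69.3% (WT testes) of all genes did not overlap. The second Fzd4 probe set was more scattered. It ran from 59.5 through a median of 109 to 227 at E14.5. At E12.5 it ran from 83.1 through a median of 169 to 415. Its WT ovary arrays at E14.5 were at 227 and 59.5. A dimmer Fzd4 probe set that also passed the filter did not follow this fall. It ran from 10.9 through a median of 12.5 to 15.3 at E14.5, against 5.92, 11.3 and 22.1 at E12.5. In KO ovaries it was higher at E14.5, at 12.7 and 13.3 against 5.995 and 6.018. In WT testes it was lower, at 12.3 and 14.5 against 16.9 and 17.2. Its arrays of the 2 stages overlapped in WT ovaries and KO testes.

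Fzd7, a receptor of epithelial stem cells, ran from 223 through a median of 368 to 520.0 at E14.5, and from 376 through a median of 537 to 642 at E12.5. The differences were -0.50 (KO) and -0.90 (WT) in ovaries and -0.29 (KO) and -0.06 (WT) in testes, and none of the 4 passed alone. The call for Fzd7 in the averaged contrast was lost in 11 of 32 alternatives, 6 of them the omission of 1 array: WT testis E12.5 replicate 1, KO testis E12.5 replicate 2, WT ovary E14.5 replicate 1, KO ovary E14.5 replicate 1, WT testis E14.5 replicate 1 or KO testis E14.5 replicate 1. With the mean of both Fzd7 probe sets its averaged difference was -0.05 (adjusted p = 0.804), since the second read 8.85 to 24.8 at E14.5 and 8.15 to 23.3 at E12.5.

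**Figure D3:**
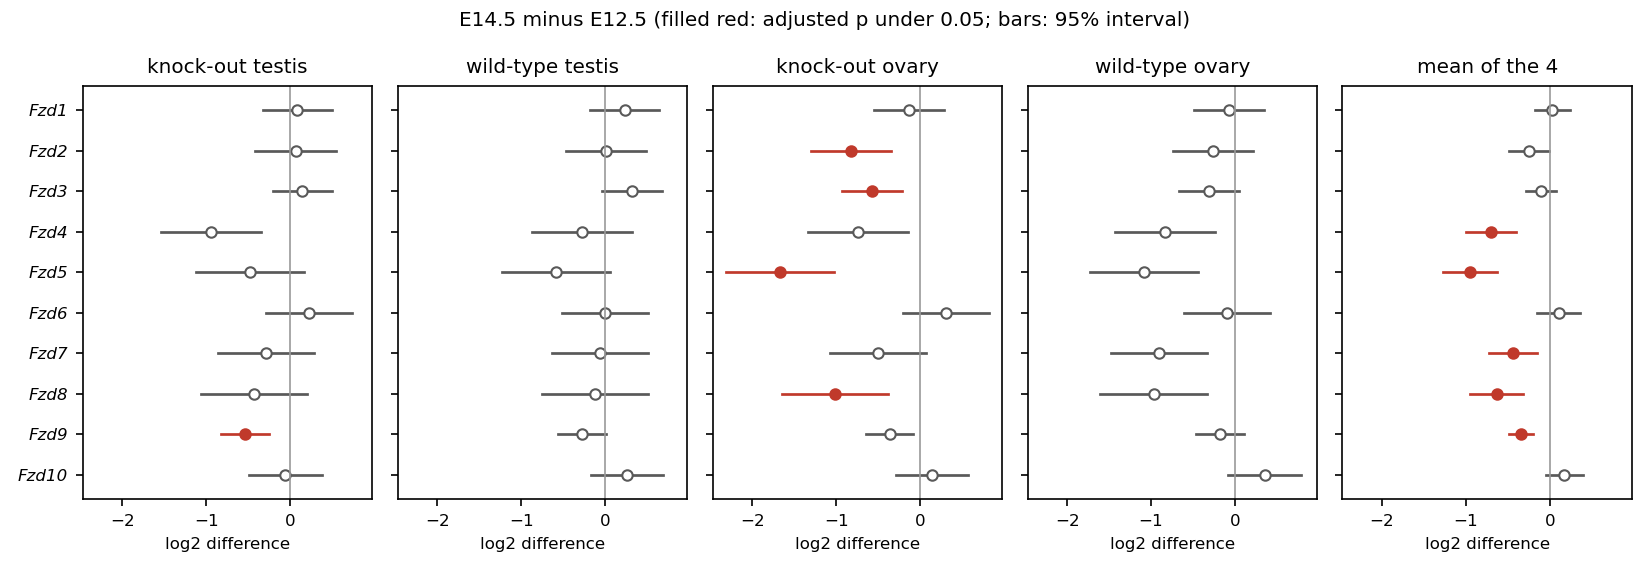
Difference of E14.5 minus E12.5 (log2, horizontal axis) for each Frizzled gene in testes and ovaries of both genotypes and as the mean of the 4. Points are limma estimates, bars are 95% intervals, and filled red points passed the threshold. Fzd4, Fzd5, Fzd7, Fzd8 and Fzd9 lie left of 0 in every panel, and Fzd2 and Fzd3 passed only in KO ovaries.

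**Figure D4:**
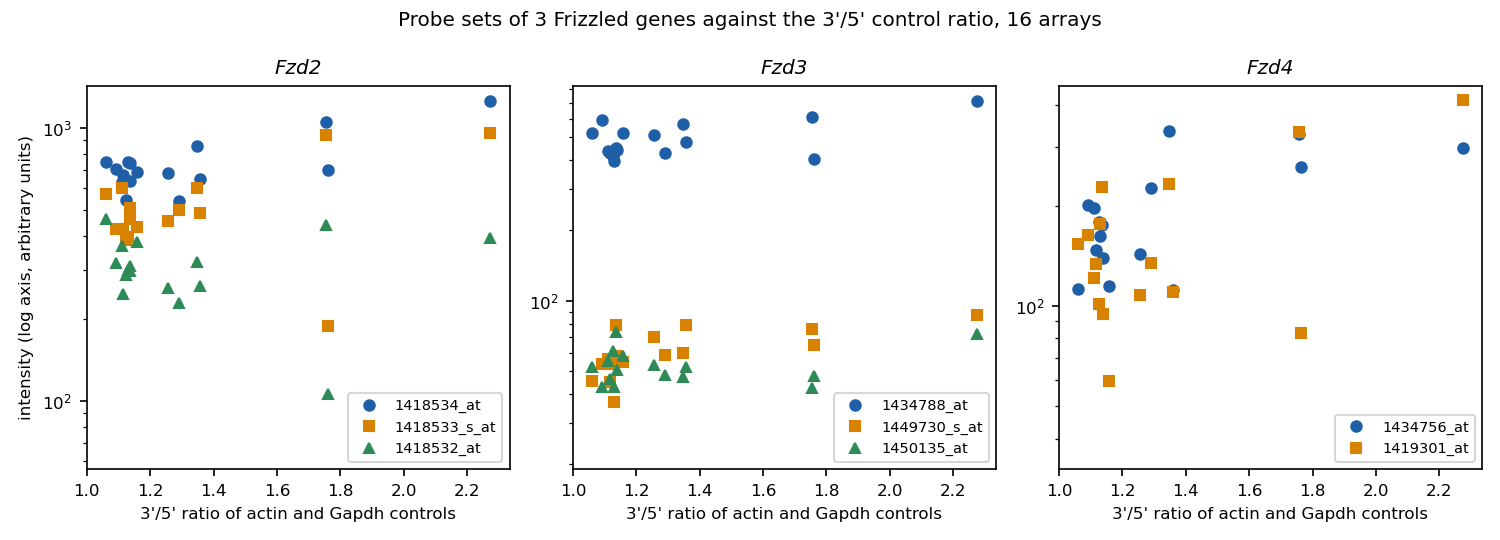
Intensity (log axis, arbitrary units) of the brighter probe sets of Fzd2, Fzd3 and Fzd4 against the 3'/5' ratio of the control probe sets, 1 point per array and probe set, 16 arrays. At the array with ratio 2.27 the probe sets read for Fzd2 and Fzd3 are at their highest, 1256 and 713. At the KO testis array with ratio 1.76 the other Fzd2 probe sets are at their lowest, 106 and 188. The same 2 probe sets are at 439 and 939 in the WT ovary array with ratio 1.76. They are at 395 and 954 at ratio 2.27. The part of RNA quality in these levels was not tested.

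Between testes and ovaries, only the dim Fzd9 passed the threshold in a single comparison. In WT gonads at E14.5 1 of 10 members passed, Fzd9, where 3.83% of all genes did. Fzd9 entered the test only through E12.5 testes, so its calls between testes and ovaries, here and below, are descriptions only. It gave 9.06 and 7.09 in WT testes, against 4.28 and 4.54 in WT ovaries (log2 0.52 ± 0.13 SE, limma adjusted p = 0.0475). The testis arrays were above the ovary arrays, but all 4 values were below the array medians, and the call was lost in 13 of 20 alternatives, each omission of 1 of the 4 arrays among them. In WT gonads at E12.5 0 of 10 passed (0.608% of all genes), in KO gonads at E12.5 0 passed (1.14%) and in KO gonads at E14.5 0 passed (5.33%), with 3, 4 and 2 members at an unadjusted p under 0.05, against 2060, 2363 and 2143 of all genes. The sex difference in WT gonads was not shown to differ between E14.5 and E12.5 for any of the 10 members (0.154% of all genes called), and 2 had an unadjusted p under 0.05, against 2244 of all genes. Without KO ovary E12.5 replicate 2, 4 members passed in KO gonads at E12.5 (Fzd2, Fzd3, Fzd5 and Fzd9), and without WT ovary E12.5 replicate 1, 2 passed in WT gonads at E12.5 (Fzd4 and Fzd9). These 2 arrays carried an estimated 19.0% and 22.1% of male RNA, whose part in the result was not tested.

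Averaged over stage and genotype, Fzd9 was higher in testes, at 0.50 (95% interval 0.36 to 0.64, limma adjusted p = 0.000282), and Fzd4 was lower, at -0.46 (-0.75 to -0.16, adjusted p = 0.0494), in a contrast that 11.2% of all genes passed. Fzd9, known in mice from lymphoid, bone and nerve tissue, gave 6.93 and 6.68 in KO testes at E14.5, against 4.26 and 4.72 in KO ovaries. At E12.5 it gave 11.1 and 12.2 in KO testes and 10.9 and 10.3 in WT testes, against 6.17 and 7.74 in KO ovaries and 5.39 and 5.60 in WT ovaries. The testis arrays were above the ovary arrays at each stage and in each genotype. Groups did not overlap in 54.4% (KO, E14.5), 45.9% (WT, E14.5), 47.1% (KO, E12.5) and 57.8% (WT, E12.5) of all genes. The filter admitted Fzd9 only through the E12.5 testes, so its call in the averaged sex contrast is a description only. The Fzd4 call was lost in 25 of 32 alternatives. Fzd3 had an averaged difference of -0.24 (adjusted p = 0.0796), and at E12.5 it gave 402 and 428 in KO testes against 713 and 568 in KO ovaries, and 428 and 394 in WT testes against 591 and 608 in WT ovaries. Its testis arrays were below its ovary arrays in both genotypes at E12.5. At E14.5 Fzd3 gave 439 and 479 in KO testes, above the 415 and 437 of KO ovaries, and 519 and 508 in WT testes, overlapping with the 448 and 522 of WT ovaries (log2 0.11 and 0.09).

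**Figure D5:**
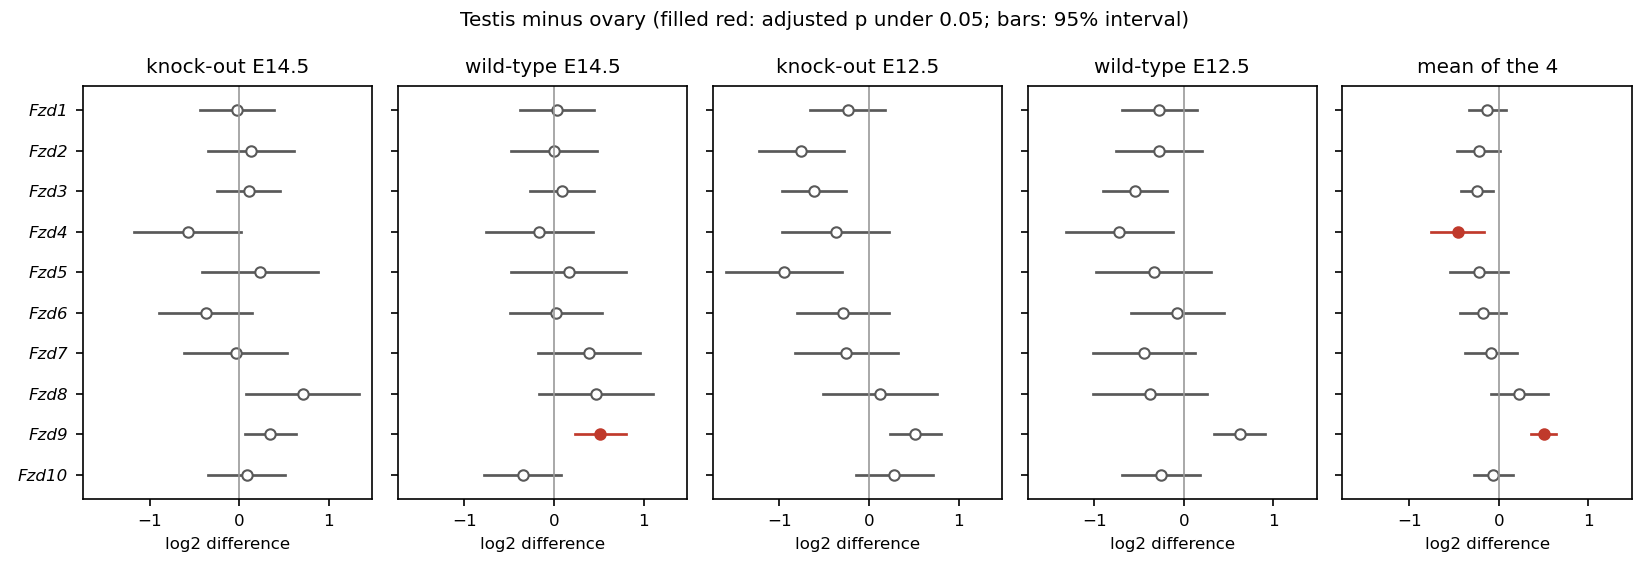
Difference of testis minus ovary (log2, horizontal axis) for each Frizzled gene in KO and WT gonads at both stages and as the mean of the 4. Points are limma estimates, bars are 95% intervals, and filled red points passed the threshold. Fzd9 lies right of 0 in every panel at low signal, and Fzd4 left of 0 in every panel.

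In the order of its 8 group means, Fzd5 ran from KO ovaries at E12.5 (209), through WT ovaries (141), WT testes (111) and KO testes (104) at E12.5, to KO testes (74.3), WT testes (72.2), WT ovaries (64.2) and KO ovaries (61.7) at E14.5. Only the step from the first to the second group and the step between the stages exceeded the spread of the arrays. Fzd8 began with KO testes (111) and KO ovaries (101) at E12.5 and ended with WT ovaries at E14.5 (37.7), with 3 of 7 steps beyond the spread. Fzd4 began with KO ovaries at E12.5 (316) and ended with KO testes at E14.5 (125), with 2 of 7 steps beyond it. For Fzd7 no step exceeded the spread, from KO ovaries at E12.5 (590.3) to WT ovaries at E14.5 (301). Fzd2 ran from KO ovaries at E12.5 (1058) to KO ovaries at E14.5 (588), with 1 of 7 steps beyond the spread. Fzd3 ran from KO ovaries at E12.5 (641) to WT testes at E12.5 (411), with 2 of 7.

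The pattern over the 8 group means was set beside those of all other tested genes for the 4 members that spanned at least 1 (log2), by the root mean square difference after centring each gene on its mean. Palm, Stab1 and Vsir came closest to Fzd5, at 0.10, 0.10 and 0.11. Capn6, Dhrs3 and Cnst came closest to Fzd4, at 0.10, 0.12 and 0.14. Notch4, Tbx4 and Gstm3 came closest to Fzd8, at 0.12, 0.13 and 0.15, and Gga3, E130309D02Rik and Fgfr1 to Fzd7, at 0.07, 0.09 and 0.10. These figures describe likeness over 8 means of 2 arrays each.

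Around the receptors, 86 genes of the WNT pathway were listed and 66 were tested: ligands, co-receptors, secreted Frizzled-related proteins, receptor turnover genes, cytoplasmic signal carriers, feedback targets and planar polarity genes. In KO ovaries 2 of the 66 (3.03%) were lower than in WT ovaries at E12.5 and 4 (6.06%) at E14.5, none higher. Of all genes 0.292% and 0.543% passed in these comparisons. The 4 include Wnt4, the knocked-out gene, whose fall belongs to the design. The lists were chosen with earlier results of these data known, so these shares are descriptions only. In KO testes 0 of the 66 passed at either stage. Lgr5, the R-spondin receptor that acts on Frizzled turnover, gave 18.6 and 16.1 in KO ovaries at E14.5, against 140.3 and 89.8 in WT ovaries (log2 -2.45 ± 0.28 SE, limma adjusted p = 0.00235). Notum, a feedback enzyme that removes the lipid by which WNT proteins bind Frizzled receptors, gave 10.49 and 14.4 in KO ovaries, against 147 and 146 in WT ovaries (log2 -3.21 ± 0.46 SE, adjusted p = 0.00641). Nkd2, a Dishevelled-binding feedback target, fell by 1.56 (adjusted p = 0.0486) and Wnt4 by 1.80 (adjusted p = 0.0445) in the same comparison. At E12.5 Lgr5 fell by 1.48 (adjusted p = 0.0493) and Notum by 2.66 (adjusted p = 0.0331). Lgr5 and Wnt4 are also in the list of 10 pre-granulosa markers, of which 3 were lower in KO ovaries at E12.5 and 5 at E14.5. The 12 co-receptors and helpers (10 tested) and the 5 secreted Frizzled-related proteins (4 tested) had 0 called in any of the 4 KO comparisons.

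With stage, 13 of the 66 pathway genes passed in KO ovaries, 12 of them lower at E14.5, and 9 passed in WT ovaries, 7 of them lower. These are 19.7% beside 13.8% of all genes in KO ovaries and 13.6% beside 4.36% in WT ovaries. Tspan12, the tetraspanin that helps FZD4 answer norrin, was lower at E14.5 in all 4 comparisons, by 1.05 in KO ovaries, 1.17 in WT ovaries, 1.11 in KO testes and 1.07 in WT testes (limma adjusted p from 0.0142 to 0.0209). It gave 223 and 258 in KO ovaries at E14.5, against 466 and 539 at E12.5, and 213 and 254 in KO testes, against 622 and 412. Arrays of the 2 stages did not overlap in any of these pairs, where 61.9% (KO ovaries), 39.9% (WT ovaries), 49.8% (KO testes) and 69.3% (WT testes) of all genes did not overlap. Frzb, a secreted protein with a Frizzled-like WNT-binding domain, gave 22.0 and 36.6 in KO ovaries at E14.5, against 249.8 and 178 at E12.5 (log2 -2.73 ± 0.30 SE). It was also lower in WT ovaries (-1.45) and WT testes (-1.35). Sfrp2, another secreted Frizzled-related protein, was lower at E14.5 in KO ovaries (-1.18) and WT testes (-0.93). Wnt5a, a ligand of pathways that do not use beta-catenin, rose at E14.5, by 0.91 in KO testes and by 0.99 in WT testes. Averaged over sex and genotype 21 of 66 pathway genes passed, 14 lower and 7 higher, which is 31.8% beside 26.5% of all genes.

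Between the sexes, Wnt9a was lower in KO testes than in KO ovaries at both stages (-1.43 at E14.5 and -1.43 at E12.5) and in WT testes at E12.5 (-1.71). It gave 17.9 and 19.9 in KO testes at E14.5, against 63.5 and 52.4 in KO ovaries. Sfrp2 was lower in WT testes at E14.5 (-0.76) and in KO testes at E12.5 (-1.23). Rspo1, whose product keeps Frizzled receptors on the cell surface, was lower in KO testes than in KO ovaries at E14.5 (-1.64). Over all 66 the averaged contrast called 9 lower and 1 higher in testes, 15.2% beside 11.2% of all genes.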

How the data were processed

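Total RNA from embryonic mouse gonads was hybridised to Affymetrix Mouse430_2 arrays, 8 ug per sample per the labels' protocols, and the authors deposited probe-set intensities on a linear scale. MAS5 produced them, per the submitters' processing notes. Its version and scaling target were not given in the sources used here. Titles of male samples name an ovary and their source names testis, and they were treated as testis. No chip reported a read depth, and the number of arrays limits the precision.

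Intensities were turned into log2(intensity + 4), so folds of dim genes are understated. Control probe sets (64 of 45101) were dropped. A probe set was kept when 2 or more arrays exceeded their own median, which left 25620. Names came from the platform annotation (34945 probe sets with 1 symbol, 932 with several and 9160 with none), updated for 34741 through Entrez numbers. Each gene was read at its probe set with the highest mean. All 16 arrays were fitted with 8 group means in limma 3.58.1 (R 4.3.3), with variances moderated along an intensity trend (degrees of freedom: 8 residual, 5.29 prior), two-sided tests and Benjamini-Hochberg adjustment over 12336 genes per comparison at 0.05. The fit was tested on simulated data. Promoters and figures were handled in Python 3.11.15. Averages of the KO, sex and stage contrasts were added after the values were seen.

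All Frizzled genes were named, with up to 4 pathway genes per list in KO comparisons and up to 2 in others by smallest p past the threshold, and the 3 closest patterns for members spanning at least 1. The members and lists were chosen with earlier results of these data known. Alternatives covered the pseudocount (1 and 16), filter, normalization, variance model, array weights, replicate number as a block, probe set summary, near-identical arrays, covariates, threshold, arrays left out and single replicates left out. Replicate numbers did not pair the samples: same-numbered deviations correlated from -0.66 to 0.58.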

Additional observations from a re-analysis of the deposited data

Results flagged for a closer look

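For Fzd8 in WT gonads, testis and ovary changed places between the stages: both WT testis arrays were above both WT ovary arrays at E14.5 (log2 0.47) and below them at E12.5 (-0.38). The difference between the 2 sex differences was 0.85 (SE 0.42), with an adjusted p of 0.299 for the interaction in limma. For Fzd9 in testes, both KO arrays were below both WT arrays at E14.5 (-0.16) and above them at E12.5 (0.10), a difference of -0.26 (SE 0.19, limma interaction, adjusted p = 0.984). Both were noted because the 2 groups were apart in opposite directions at the 2 stages, out of 50 combinations examined. For WT testis against ovary 45.9% (E14.5) and 57.8% (E12.5) of all genes did not overlap. For KO against WT testes the shares were 25.7% (E14.5) and 57.2% (E12.5). The share of all genes that cross in this way was not counted, so both cases are descriptions only. With 2 arrays a group, no test for a stray array was made.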

How the results depend on the processing

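The 0 of 10 in each KO comparison and each interaction held in all 17 settings and with any array left out. Of 3465 single-gene values under alternatives, 3331 stayed on their side of the threshold, 95 lost and 39 gained a call, and 0 called values turned sign (121 values called in neither setting did). The cause of each change was not tested. Counts of members called follow, with the main count first. WT testis against ovary at E12.5 (0) gave 1 with pseudocount 1, without the filter, with the opposite-sex share as covariate and at threshold 0.1, and 0 to 2 with an array left out. At E14.5 (1) it gave 0 with pseudocount 16, filter of 4 arrays, quantile normalization, no trend, array weights, all probe sets, near-identical arrays averaged, E14.5 arrays of over 10% opposite-sex RNA left out, only the arrays compared, and any array left out. KO testis against ovary at E12.5 (0) gave 1 without the filter and with the opposite-sex covariate, 2 at threshold 0.1, and 0 to 4 with an array left out. The stage contrast in WT ovaries (0) gave 1 without trend, with the mean of probe sets, with the opposite-sex covariate and without the opposite-sex arrays, 3 at threshold 0.1, and 0 to 1 with an array left out. In WT testes (0) array weights gave 1. In KO ovaries (4) the count was 6 at threshold 0.1, 5 with the opposite-sex covariate, 3 without the filter, 2 with array weights, mean of probe sets, all probe sets or near-identical arrays averaged, 1 without arrays of high 3'/5' ratio, without opposite-sex arrays or with only the arrays compared, 0 with the 3'/5' covariate, and 0 to 3 with an array left out. In KO testes (1) it was 2 with array weights, the opposite-sex covariate or threshold 0.1, and 0 in 9 other settings and with any array left out. The averaged KO contrast (0) gave 1 at threshold 0.1 and 0 to 1 with an array left out. The averaged sex contrast (2) gave 3 at threshold 0.1, 0 with the filter of 4 arrays, 1 in 10 other settings, and 1 to 2 with an array left out. The averaged stage contrast (5) gave 4 to 6. With the replicate block, whose numbers do not pair the samples, the counts were 0 for WT testis against ovary at E14.5, 1 for stage in WT ovaries, 0 for stage in KO testes and 1 for the averaged sex contrast.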
